A study of Homo sapiens with 6 samples.

Results

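The TPD52 family of tumor protein D52 and its relatives was followed in HEK293T cells given a miR-34a duplex, through 3 genes: TPD52, TPD52L1 and TPD52L2. They were taken by symbol from a table of 63140 genes, and each of the 3 passed the filter on low counts that left 17427 genes for testing. TPD52L3, a retrogene of the same family that was not one of the genes taken, was listed at 0 counts in all 6 libraries. The study compared the duplex with the AllStars negative control (Qiagen), which the sample labels call an siRNA and the series text a miRNA, and RNA was taken 18 h after transfection (n = 3 libraries per group, called biological replicates). HEK293T is a transformed line from human embryonic kidney that carries a viral large T antigen. Both groups were transfected with a small RNA, and untransfected cells are not analysed here.

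Proteins of this family are short and share a coiled coil through which they bind each other as homomers and heteromers. They work in membrane traffic. TPD52 was found as a gene overexpressed and amplified in carcinomas and has been linked to lipid storage, and TPD52L2 is an abundant protein of small transport vesicles. A microRNA held by an Argonaute protein lowers its target mRNAs mainly through pairing of its seed with matches in the 3′ untranslated region (UTR). The strongest common form of match, the 8mer, pairs with bases 2 to 8 of the microRNA and has an A after that stretch. The 7mer-m8 lacks the A, the 7mer-A1 lacks the pair at base 8, and the 6mer lacks both.

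The guide strand of the duplex and the only match to its seed in the coding sequence of a family member are shown because the members differed in where they hold such a match. The guide sequence is from RefSeq (GRCh38.p14, chr1:9151735-9151756, minus strand), with capitals at the seed, bases 2 to 8. The second line is sense mRNA sequence of TPD52L1 from GENCODE release 29, 5′ to 3′, in DNA letters, with capitals at its 7mer-m8.
hsa-miR-34a-5p: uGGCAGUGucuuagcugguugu
TPD52L1 coding match: tgacatgcagactacCACTGCC

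The match in TPD52L1 covers bases 279 to 285 of the 627 coding bases of the transcript with the longest coding sequence. It is joined only by splicing: its first 6 bases end exon 3 (chr6:125229261-125229266, plus strand, GRCh38) and its last base opens exon 4 (chromosome 6, position 125248282). In the RNAduplex prediction for the 30 nt that end with the match, 16 bases of the guide were paired, among them all 7 of the seed and all 4 of bases 13 to 16. At the aligned positions TPD52L2 had 1 mismatch to these 7 bases and TPD52 had 3. A 7mer-m8 or 8mer in the coding sequence is not rare, since 3809 of 19659 coding sequences (19.4%) held one. No 3′ UTR match of any kind, including the 6mer ACTGCC, was found in TPD52L1 or TPD52L2. That held for all 10 TPD52L1 transcripts and all 9 TPD52L2 transcripts with a complete 3′ UTR.

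TPD52 was the only member with a match in its 3′ UTR. The 8mer CACTGCCA, searched on the sense strand, began 25 nt after the stop codon in the last of 8 exons (chr8:80038084-80038091, minus strand, GRCh38). A 7mer-A1, ACTGCCA, began 1303 nt after the stop codon (chr8:80036807-80036813) in a 3′ UTR of 1531 nt. The 8mer was present in all 7 protein-coding transcripts of TPD52 with a complete 3′ UTR, whose UTRs ran from 809 to 3371 nt, so the choice of transcript does not remove it. The other matches do depend on that choice. The 7mer-A1 was absent from the UTR of 809 nt, and the UTRs of 3244 and 3371 nt also held a 6mer. An 8mer was the strongest match in 675 of 13563 tested genes with a classed 3′ UTR (4.98%), and 8904 (65.6%) had no match. In those 675 genes the first 8mer began a median of 863 nt after the stop codon, and in 23 of them it began nearer to it than in TPD52. The UTR bases up to 30 nt on each side of the TPD52 8mer were 50% A or U, the same as the median of these genes. RNAduplex paired 12 bases of the guide with the TPD52 8mer window, 3 of them in bases 13 to 16.

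**Figure D1:**
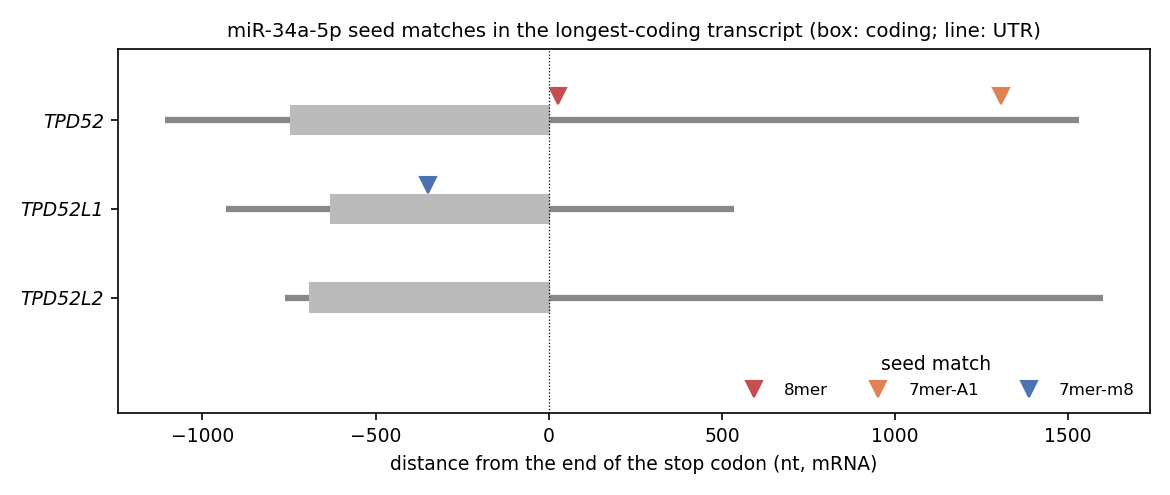
Position of each miR-34a-5p seed match (triangles, coloured by kind) along the mRNA of the 3 members, in nt from the end of the stop codon; boxes are coding sequence and lines are UTRs, to scale. The transcripts drawn are those with the longest coding sequence. TPD52 holds an 8mer 25 nt and a 7mer-A1 1303 nt after the stop codon, TPD52L1 a 7mer-m8 in its coding sequence, and TPD52L2 none.

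The 6 libraries held 24728662 to 36650331 counts. Of the 17427 tested genes, 6.7% fell and 5.38% rose at an adjusted p under 0.05, 12.1% in all (edgeR quasi-likelihood test, Benjamini-Hochberg adjusted over all tested genes). These shares changed when single libraries were left out. Each such refit also has fewer libraries in a group, and the 2 cannot be told apart. With all libraries 1167 genes fell and 938 rose. Without control replicate 1 more passed, and 1394 of 18061 genes fell and 1287 rose. Without miR-34a replicate 2 fewer passed, and 727 of 18138 genes fell and 604 rose. The genes that rose numbered 525 without control replicate 2 and 606 without control replicate 3. Markers of this line were present, from VIM at 184 to 224 CPM (counts scaled to library size) down to PAX2 at 1.13 to 2.19 CPM. Of the 6 markers, all tested, NEFL and NEFM fell by 0.32 and 0.22 on the log2 scale (adjusted p = 0.0041 and 0.037). The summed level of the 6 was 544 to 590 CPM in the controls and 502 to 524 CPM with miR-34a, and its part in the results on the family was not tested. Markers of other cells were at 4 counts or fewer in every library for PTPRC, CD3E, PECAM1, ALB and KRT5, with CD3E at 0, while COL1A1 stood at 20.9 to 27.8 CPM. The summed level of this list of 6 was 21.1 to 27.8 CPM in the controls and 21.6 to 23.4 CPM with miR-34a.

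TPD52 mRNA fell to 0.39 of its control level with miR-34a, while the changes of TPD52L1 and TPD52L2 were smaller and did not pass the test. TPD52 had 1350, 2003 and 2032 counts in control replicates 1, 2 and 3 and 615, 749 and 744 counts in the miR-34a replicates. Scaled to library size by TMM, this was 55.2, 61.1 and 63.1 CPM in the controls and 24.4, 25.6 and 20.1 CPM with miR-34a. Every miR-34a library lay below every control library, and the lowest control was over 2 times the highest miR-34a library. Such a lack of overlap in this direction was seen in 14.2% of tested genes. The control mean was 59.8 ± 4.12 CPM and the miR-34a mean 23.4 ± 2.91 CPM (SD, n = 3). edgeR put the log2 fold change at -1.36 with an SE of 0.09 and an adjusted p of 1e-10. The 95% interval of the log2 fold change, -1.54 to -1.18, corresponds to a level 55.8 to 65.7% lower. In bulk RNA, a lower level in every cell and a change in only some of the cells cannot be told apart.

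Among all 17427 tested genes TPD52 had the 21st lowest log2 fold change and the seventh lowest p. Among the 10289 genes whose mean log2 CPM reached 3, its log2 fold change was the sixth lowest. Against the other 8mer genes it was also at the low end. The median log2 fold change of the 675 tested 8mer genes was -0.14, 187 of them fell (27.7%), and 6 had a lower value than TPD52. Of the 183 with exactly 2 matches of the 7mer or 8mer kind, as in the TPD52 transcript with the longest coding sequence, 2 had a lower value. Of 39 genes whose first 8mer began within 50 nt of the stop codon, a distance chosen after the position in TPD52 was known, TPD52 had the lowest log2 fold change, and the median was -0.23. In the 636 genes with a first 8mer farther out, the median was -0.14. These are positions in a ranking of genes and carry no test.

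**Figure D2:**
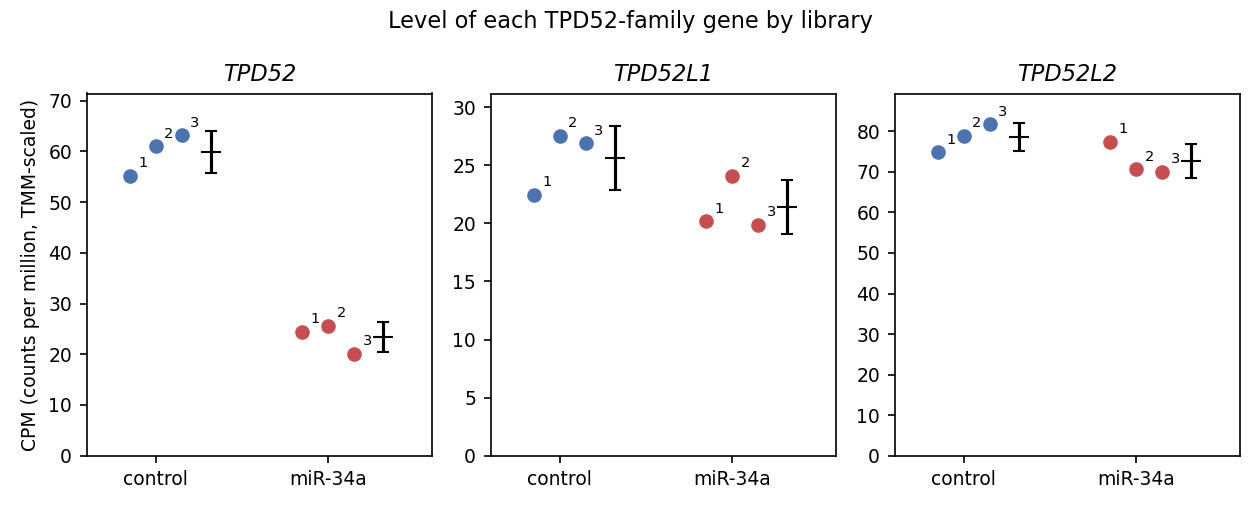
CPM of each member (y axes start at 0 and differ between panels) in the 3 control (blue) and 3 miR-34a (red) libraries, numbered by replicate; black marks are the mean ± SD. The TPD52 groups are far apart, at 55.2 to 63.1 against 20.1 to 25.6 CPM, and the groups overlap for TPD52L1 and TPD52L2.

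**Figure D3:**
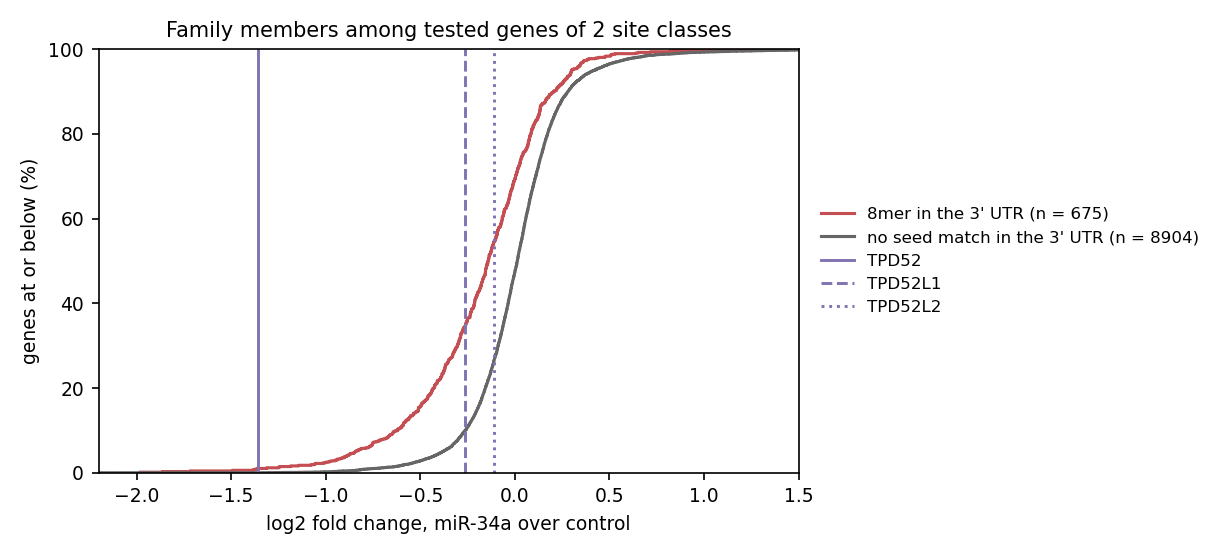
Cumulative share of genes (y axis, %) by log2 fold change of miR-34a over control (x axis) for the 675 tested genes with an 8mer and the 8904 with no 3′ UTR match; vertical lines mark the members. TPD52 lies near the foot of the 8mer curve, with 6 genes of its class below it. TPD52L1 lies in the lower tail of the no-match curve, with 877 genes below it, and TPD52L2 farther up, with 2318 below it.

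TPD52L1, also called D53, is the closest relative of TPD52 in coding sequence here, with 68.1% of aligned bases identical. It had 550, 904 and 866 counts in the controls and 509, 704 and 736 counts with miR-34a. In CPM this was 22.5, 27.6 and 26.9 in the controls and 20.2, 24.1 and 19.9 with miR-34a. The groups overlapped, since miR-34a replicate 2 stood above control replicate 1. edgeR put the log2 fold change at -0.27 with an SE of 0.10 and an adjusted p of 0.078 (unadjusted p = 0.011), so TPD52L1 was not called. Its 95% interval, -0.47 to -0.07, runs from a level 27.6% lower to one 4.41% lower. The call turned on single libraries: TPD52L1 passed without control replicate 1 (log2 fold change -0.34, adjusted p = 0.012) and without miR-34a replicate 2 (-0.36, adjusted p = 0.037). In the other 11 refits it did not, with adjusted p from 0.074 to 0.31. Over the whole table more genes passed without control replicate 1, and fewer without miR-34a replicate 2. Of the 8904 tested genes with no 3′ UTR match, 877 had a lower log2 fold change than TPD52L1. Of all 8904, 435 fell (4.89%), 660 rose and the median was 0.01. Of the 1714 among these with a coding 7mer-m8 or 8mer, as in TPD52L1, 246 had a lower value than TPD52L1. In these 1714, 140 fell (8.17%), 82 rose and the median was -0.03. Whether a coding match bears on this was not tested.

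TPD52L2, or D54, was the member with the most counts. It had 1832, 2589 and 2634 counts in the controls and 1951, 2063 and 2592 with miR-34a. In CPM the controls stood at 74.9, 78.9 and 81.9 and the miR-34a libraries at 77.5, 70.6 and 70.1. Here miR-34a replicate 1 lay inside the control range and the other 2 below it. edgeR put the log2 fold change at -0.11 with an SE of 0.07 and an adjusted p of 0.36. Its 95% interval, -0.26 to 0.03, corresponds to 0.835 to 1.02 of the control level, so a change of the size seen in TPD52 lies outside it and a small fall does not. Among the no-match genes 2318 had a lower value than TPD52L2.

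**Figure D4:**
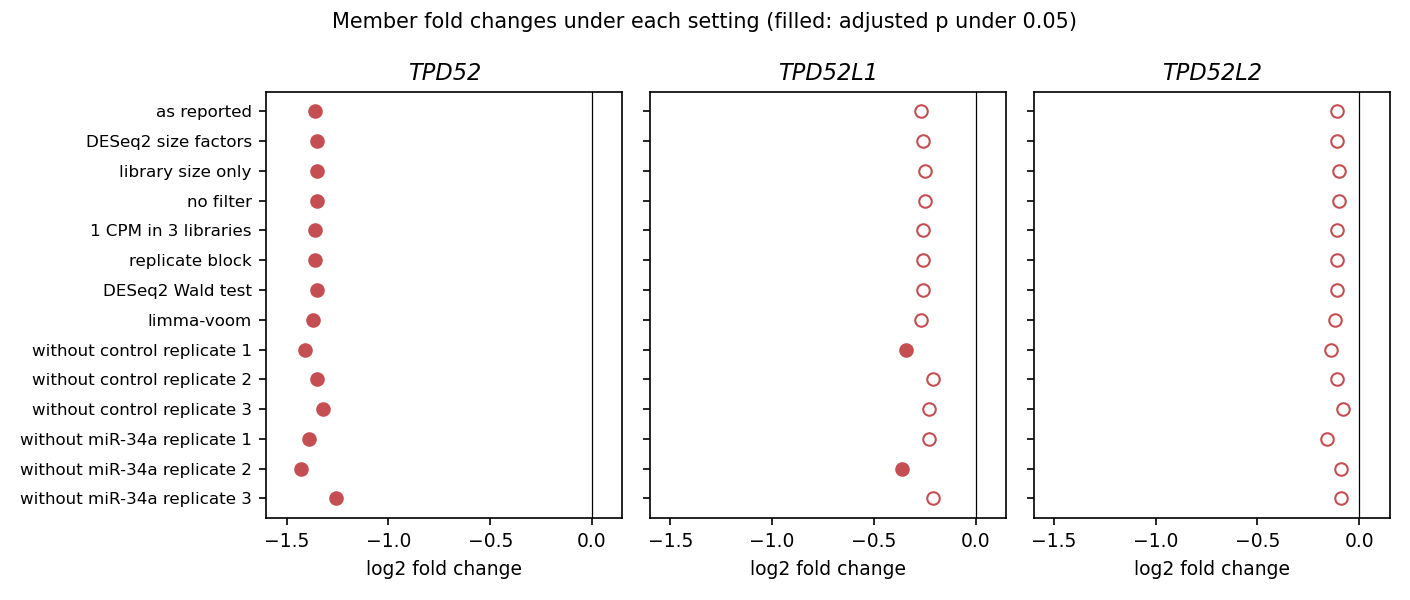
Log2 fold change of each member (x axis) in the reported fit and in 13 refits with another scaling, filter, tool, a replicate block or 1 library left out (y axis); filled points have an adjusted p under 0.05. TPD52 is filled throughout, between -1.43 and -1.26, TPD52L1 in 2 refits and TPD52L2 in none.

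Set against each other within a library, TPD52 was lower relative to both other members in every miR-34a library than in any control. The per-library log2 ratio of TPD52 to TPD52L2, each per kilobase of merged exons, was -1.25, -1.18 and -1.18 in the controls and -2.47, -2.27 and -2.60 with miR-34a. The groups did not overlap, and the mean difference was -1.25 (exact two-sided permutation test, p = 0.1, the smallest p that this design allows). For TPD52 to TPD52L1 the log2 ratio was 1.19, 1.04 and 1.12 in the controls and 0.16, -0.02 and -0.09 with miR-34a, a mean difference of -1.10 (exact two-sided permutation test, p = 0.1, again the smallest possible). The log2 ratio of TPD52L1 to TPD52L2 overlapped between the groups, with a mean difference of -0.15 (exact two-sided permutation test, p = 0.3). These 3 ratios share their genes and libraries, so they are not independent tests. Adjusted over the 3 (Benjamini-Hochberg), the exact test gave p = 0.15, 0.15 and 0.3, and this design cannot reach 0.05.

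Levels of different genes are compared here per length, as TMM-scaled CPM per kilobase of merged exons. In the controls TPD52L2 stood highest at 16.7 ± 0.743, TPD52 next at 7.30 ± 0.502 and TPD52L1 lowest at 3.38 ± 0.363 CPM per kb (SD, n = 3), with no overlap between neighbours in this order. With miR-34a TPD52L2 stood at 15.5 ± 0.881, and TPD52, at 2.85 ± 0.355, no longer differed from TPD52L1, at 2.82 ± 0.308 CPM per kb, beyond their spread. That order rests on the length used. With the length of the transcript with the longest coding sequence, the control order was the same, at 33.3, 22.7 and 17.5 CPM per kb, but with miR-34a TPD52 stood below TPD52L1 in each library, at 9.26, 9.72 and 7.62 against 13.8, 16.4 and 13.6 CPM per kb. Which transcripts are made in these cells is not given by counts per gene.

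The summed level of the family, and the share of TPD52 in it, were lower in every miR-34a library than in any control. The sum of the 3 members was 25.6, 27.9 and 28.7 CPM per kb in the controls and 22.1, 21.4 and 20.0 with miR-34a. The groups did not overlap, and the mean was 22.8% lower (exact two-sided permutation test, p = 0.1). TPD52 made up 26.2, 26.7 and 26.9% of the sum in the controls and 13.4, 14.7 and 12.3% with miR-34a (exact two-sided permutation test, p = 0.1). Of the difference between the group means of the sum, TPD52 carried 71.2%, TPD52L2 19.9% and TPD52L1 8.96%. With transcript lengths TPD52 carried 72.03%, but the other members changed places, with 12.9% for TPD52L2 and 15.1% for TPD52L1. The levels of TPD52L1 and of TPD52L2 overlapped between the groups (exact two-sided permutation test, p = 0.2 for each). Their parts of the difference are therefore uncertain. The share of TPD52L2 was 61.1 ± 0.997% in the controls and 73.2 ± 2.37% with miR-34a (SD, n = 3), while that of TPD52L1 overlapped between the groups, at 12.3 ± 0.735 and 13.3 ± 1.44%.

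**Figure D5:**
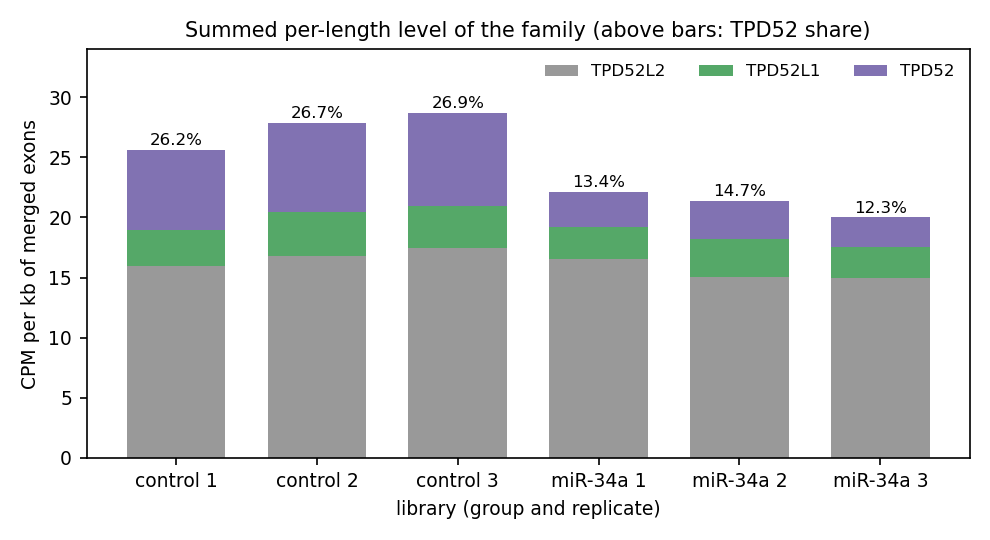
Summed level of the 3 members in each library, as stacked bars of CPM per kb of merged exons; the number above a bar is the share of TPD52 in %. The TPD52 segment shrinks from 26.2 to 26.9% of the sum in the controls to 12.3 to 14.7% with miR-34a, and the TPD52L2 segment has a mean of 16.7 against 15.5 CPM per kb.

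Reads of the members can be told apart from each other in the main, but not always from neighbours. The longest stretch shared by any transcripts of 2 members was 37 nt, between TPD52 and TPD52L2, whose coding sequences were 64.9% identical. Of the TPD52 exonic length, 10.7% (877 nt) is shared with ENSG00000276418, a same-strand gene model that reaches into MRPS28 and was listed at 0 counts in all 6 libraries. The exon with the 8mer is not among its exons. How reads over shared exons were assigned is not given in the sources used here. TPD52L1 shares 191 nt, 2.51% of its exonic length, with HDDC2 on the opposite strand, and the library kit does not mark strand. HDDC2 stood higher, with a mean of 142 CPM in the controls and 134 CPM with miR-34a (log2 fold change -0.08, SE 0.07, edgeR adjusted p = 0.54).

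The 3 genes whose profile over the 6 libraries was most like that of TPD52 also held an 8mer. By Pearson r of log2 CPM among 9943 other protein-coding genes whose mean log2 CPM reached 3, they were RNF44 (r = 0.998), ZDHHC16 (0.997) and RTL8A (0.996). Their log2 fold changes were smaller, at -0.41, -0.62 and -1.06. RTL8A has near-identical copies, so its value is uncertain. With 6 libraries in 2 groups a high r is common: 364 genes had an r over 0.95 to TPD52. How many of those 364 hold an 8mer was not counted. TPD52L1 came 1547th and TPD52L2 1870th in the ranking by r to TPD52 (r = 0.80 and 0.75). The nearest profiles were those of BOC, CNN3 and TUBA1A for TPD52L1 and MCM7, RPL26L1 and NUTF2 for TPD52L2, with r from 0.983 to 0.993, and none of these 6 genes passed the test with all libraries. Without control replicate 1, TUBA1A passed (-0.22, adjusted p = 0.045), as TPD52L1 did. NUTF2 holds a 7mer-m8 in its 3′ UTR, and the other genes nearest to TPD52L1 or TPD52L2 hold no match there.

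Among genes whose proteins have been reported to bind or act with family members, 14 of 15 were tested, 0 fell and 1 rose by edgeR (7.14%, against 12.1% of all tested genes). At an unadjusted p under 0.05 still 0 fell, as by DESeq2 and limma-voom at their adjusted p, and the median log2 fold change was 0.02 against -0.004 over all genes. The gene that rose was PRKAA1, a catalytic subunit of the energy sensor AMPK, at 62.4, 52.7 and 59.9 CPM in the controls and 75.6, 80.6 and 78.7 CPM with miR-34a (log2 fold change 0.43 ± 0.07, adjusted p = 0.00024). ATM, the DNA damage kinase, stood at a log2 fold change of 0.21 with adjusted p = 0.13 and passed without control replicate 1 (0.31, adjusted p = 0.0096), which made 2 genes. The 3′ UTR of ATM holds 2 matches of the 7mer kind, the strongest a 7mer-m8. The 14-3-3 genes YWHAB, YWHAE, YWHAG, YWHAH, YWHAQ and YWHAZ, adaptors that bind phosphorylated proteins, had log2 fold changes from -0.10 to 0.09 and adjusted p of 0.40 or higher. A further 14-3-3 gene, SFN, had a low level of 0.164 to 0.685 CPM, with a log2 fold change of 0.30 and an SE of 0.47 (adjusted p = 0.76). MAL2, a binding partner of TPD52 in transcytosis, had 0 to 10 counts per library and was not tested.

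In the list of Rab GTPases and the vesicle protein ATG9A, 21 of 22 genes were tested, 2 fell and 3 rose (23.8% against 12.1% of all tested genes), with a median log2 fold change of 0.03. ATG9A, a lipid scramblase of autophagy carried by small vesicles, fell. It stood at 43.9, 41.5 and 40.3 CPM in the controls and 26.9, 26.4 and 28.9 CPM with miR-34a, a log2 fold change of -0.61 ± 0.08 (adjusted p = 4.4e-06), and its 3′ UTR holds a 7mer-A1. RAB8B and RAB18, GTPases of exocytic and lipid droplet membranes, rose, with log2 fold changes of 0.35 and 0.31 (adjusted p = 0.0051 and 0.0038). RAB8B holds a 6mer in its 3′ UTR, and the 3′ UTR of RAB18 was not classed. RAB14 and RAB11B, named after their values were seen, had log2 fold changes of 0.25 and -0.28. The 3′ UTR of RAB14 holds a 6mer and that of RAB11B no match. Whether a match bears on these changes was not tested. The call of RAB11B was lost when any of control replicates 2 and 3 and miR-34a replicates 2 and 3 was left out (adjusted p from 0.063 to 0.13), with ATG9A then the 1 gene that fell. That of RAB14 was lost when control replicate 2 (adjusted p = 0.082) or the first miR-34a replicate (0.11) was left out. RAB5C, reported to bind TPD52, stood at 43.8 CPM in the controls and 44.2 CPM with miR-34a (adjusted p = 0.95).

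Of 20 lipid droplet genes 16 were tested, 2 fell and 0 rose by edgeR (12.5%, near the 12.1% of all tested genes). At an unadjusted p under 0.05, 4 fell and 2 rose, DESeq2 and limma-voom also gave 0 that rose at their adjusted p, and the median log2 fold change was 0.007. DGAT1, which makes triglyceride in the endoplasmic reticulum and holds an 8mer, stood at 32.02, 38.05 and 32.78 CPM in the controls and 26.5, 22.3 and 19.9 CPM with miR-34a. The fold change on the log2 scale was -0.59 with an SE of 0.10 (adjusted p = 0.00013). FITM2, needed for lipid droplet budding and with a 7mer-A1, fell by 0.36 on the log2 scale (adjusted p = 0.019). Its call was lost when control replicate 3 (adjusted p = 0.13) or the first miR-34a replicate (0.082) was left out, and 1 gene then fell. PLIN2, the droplet coat protein, ranged from 32.8 to 36.5 CPM in the controls and from 30.7 to 32.8 CPM with miR-34a (adjusted p = 0.47).

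Genes near the members were looked at next. Of 30 protein-coding genes within 250 kb of a member, 22 were tested, 1 fell and 1 rose (9.09%, near the 12.1% of all tested genes). Most of the 30 lie near TPD52L2. MRPS28 was the only tested neighbour of TPD52, so this count says little about the surroundings of TPD52. MRPS28, a mitochondrial ribosome gene 4456 nt from TPD52, stood at 7.74 CPM in the controls and 6.95 CPM with miR-34a (log2 fold change -0.16, SE 0.14, adjusted p = 0.52). The gene that fell was STMN3, a tubulin-binding stathmin near TPD52L2, at 58.6, 66.5 and 59.2 CPM in the controls and 41.9, 36.0 and 37.3 CPM with miR-34a (log2 fold change -0.68 ± 0.08, adjusted p = 9.3e-07). No match was found in the STMN3 3′ UTR. RNF217, near TPD52L1 and with a 7mer-m8 in its 3′ UTR, rose by 0.30 on the log2 scale (adjusted p = 0.022). Its call was lost when control replicate 3 (adjusted p = 0.16), the first miR-34a replicate (0.05) or the last (0.082) was left out, and 0 neighbours then rose by edgeR. DNAJC5, beside TPD52L2 and with an 8mer, stood at 114 CPM in the controls and 115 CPM with miR-34a (adjusted p = 0.90).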

How the data were processed

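RNA from 6 transfected HEK293T cultures was sequenced after TruSeq v2 library preparation. The authors deposited raw read counts per Ensembl gene, not normalized. Per the submitters' processing notes, STAR 2.7.11a, featureCounts, Subread 2.0.3, edgeR 3.42.4 and GRCh38 were used; which annotation release was used, whether reads were counted by strand and how multi-mapped reads were handled is not given in the sources used here.

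Genes passing filterByExpr (minimum count 10, minimum total 15) were scaled by TMM. The whole table was tested in edgeR 4.0.16 (R 4.3.3) by quasi-likelihood, with group as the only term. Fold changes are miR-34a over control, SEs are log2 fold change over the root of F, and intervals are 95%. The fit was tested only on counts simulated from its own model, with spreads estimated from these data. Such counts cannot show how it deals with departures from that model. Libraries of a group differed beyond counting noise (chi-square per degree of freedom 8.27 to 15.8). The edgeR p-values set the difference between the groups against the spread between these libraries. That spread was estimated with information shared across genes. The permutation p-values come from regrouping the 6 libraries.

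Gene models, UTRs (at least 50 nt) and merged exon lengths come from GENCODE 29, symbols from a table of current names, and the microRNA sequence from RefSeq. UTRs of the transcript with the longest coding sequence were searched. Pairing was predicted with RNAduplex 2.7.2.

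The members and lists were chosen with earlier results of these data known. Named genes are the members, genes sharing their exons, up to 3 called genes per list by adjusted p or else the 2 most expressed, and the 3 most like profiles per member. ATM, MAL2, RAB5C, RAB11B, RAB14, PLIN2, MRPS28, DNAJC5 and the 14-3-3 genes fall outside this rule and were named after their values were seen. Alternatives were DESeq2 1.42.0 size factors and Wald test, library size only, no filter, 1 CPM in 3 libraries, limma-voom (limma 3.58.1), a replicate block, another gene length and each library left out.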

Additional observations from a re-analysis of the deposited data

How the results depend on the processing

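TPD52 fell in all 13 refits, with log2 fold changes from -1.43 to -1.26 and adjusted p of 1.3e-07 or lower, and TPD52L2 passed in none of its 13 (-0.16 to -0.08). With 1 library left out, TPD52L1 ranged from -0.36 to -0.21, past the threshold without control replicate 1 or miR-34a replicate 2. Also with 1 library left out, the genes that fell numbered 1 to 2 in the Rab list and 1 to 2 in the lipid droplet list, and those that rose 1 to 2 in the partner list and 0 to 1 among neighbours. With no filter 2 partner genes rose. With transcript lengths the family sum differed by -19.16 CPM per kb against -6.24, since shorter lengths raise every level (26.1% lower against 22.8%), and the TPD52 share by -14.57 percentage points against -13.15; the differences in log2 ratio between the groups do not depend on length, though the ratios themselves do. With the replicate number as a block, TPD52 had a log2 fold change of -1.36, TPD52L1 -0.26 (adjusted p = 0.074) and TPD52L2 -0.11, with no call changed. Same-numbered libraries did not deviate together over all tested genes (r = -0.025, 0.022 and -0.076), so no pairing by number was seen. Genes with few counts weigh as much as others in this r, so it cannot exclude a pairing. At 509 to 2634 counts per member and library, the spread between 3 libraries limits the precision more than counting does.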
